A study of Mus musculus with 28 samples.

Results

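The genes described here are 9 transcription factors of the endoderm: Gata4, Gata6, Sox17, Sox7, Foxa1, Foxa2, Foxa3, Hnf4a and Hhex. They were chosen by name as a list of regulators, and each was taken from the row of that name in the 2 tables of expression values, 1 row per gene among 37583 genes. RNA was sequenced from mouse embryonic stem cells (mESC) and from embryoid bodies (EBs), the aggregates that such cells form when LIF is withdrawn, at day 5. The series holds 28 libraries in 13 groups, and its title places it in work on methylation of Elongin A by Polycomb Repressive Complex 2 (PRC2). In the line CJ7, the wild type, an Eed null line and lines with the edited Elongin A alleles EloA K754M and EloA K754R each gave 2 mESC and 2 EB libraries. In the line CCE28 (CCE in the sample titles), 3 EloA+/+ and 3 EloA-null libraries were made from mESC, and 2 EloA+/+ libraries and 2 further pairs from EBs. The labels of those pairs contradict each other: the pair called A here is titled EloA-null but its data columns read EloAhet, and the pair called B is titled EloA+/- but its columns read EloAnull, so no genotype is assigned to either. The mESC were grown on mouse embryonic fibroblast feeders with LIF and the inhibitors PD0325901 and CHIR99021, and the feeders were reduced by a plating step. Nothing in the labels tells if replicates came from different cultures or clones, so p-values measure only the spread between these libraries, which may be technical.

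Endoderm arises more than once in the mouse embryo. The primitive endoderm of the blastocyst, which depends on GATA6 and then expresses Gata4, Sox17 and Sox7, gives the visceral and parietal endoderm of the yolk sac, while the definitive endoderm formed at gastrulation expresses Sox17, Foxa1 and Foxa2 and gives the gut, liver and pancreas. GATA4 and GATA6 are zinc finger proteins that bind GATA sites, SOX17 and SOX7 bind DNA through an HMG box, and the FOXA proteins are forkhead factors that can bind nucleosomal DNA. HNF4A is a nuclear receptor that drives genes of lipid and protein secretion in visceral endoderm and liver, and HHEX is a homeobox repressor of anterior endoderm and liver. Many developmental regulators of this kind lie in CpG-rich DNA that PRC2, of which EED is a core subunit, marks with histone H3 lysine methylation in stem cells. Elongin A (gene Tceb3 in the tables) is a transcription elongation factor.

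In the GENCODE M21 annotation (GRCm38, not the mm9 build of the deposited values) the genes other than Gata6 lie at chr14:63198922-63271692 on the minus strand (Gata4), chr1:4490931-4497354 minus (Sox17), chr14:63943673-63950732 plus (Sox7), chr12:57540628-57546916 minus (Foxa1), chr2:148042877-148046969 minus (Foxa2), chr7:19013284-19023538 minus (Foxa3), chr2:163506808-163572910 plus (Hnf4a) and chr19:37434810-37440731 plus (Hhex). Exons of Sox17 share 804 bases with the opposite-strand transcript Gm37587, and those of Gata6 share 93 with 1010001N08Rik. Whether reads were counted by strand is not given in the sources used here, so reads of those transcripts cannot be told apart from reads of the 2 genes.

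The Foxa genes and Hnf4a moved in opposite directions in the EB comparison given below, so DNA upstream of their starts is shown first. RefSeq promoter windows (GRCm38.p6) were found for 5 of the 9 genes, Foxa1, Foxa2, Foxa3, Hnf4a and Hhex. Gata4, Gata6, Sox17 and Sox7 have no entry. The 250 bases before each start were searched on both strands for GATAA (GATA factors), TGTTTAC and TGTTTGC (forkhead factors), ACAAAG and ACAATG (SOX factors), GTTAAT (part of an HNF1 site), CAAAGTCCA (HNF4A) and TATAAA (the TATA box). Capitals mark matches, which are descriptions of letters and not binding sites, and bases inside annotated exons are left out of what is printed. All 4 stretches are printed 5′ to 3′ in the direction of the gene. They are chr12:57546122-57546361 (minus strand) of Foxa1, chr2:148045465-148045714 (minus) before the innermost of 3 Foxa2 starts, chr7:19023540-19023789 (minus) of Foxa3, and chr2:163546943-163547154 (plus) before the inner of 2 Hnf4a starts.
Foxa1: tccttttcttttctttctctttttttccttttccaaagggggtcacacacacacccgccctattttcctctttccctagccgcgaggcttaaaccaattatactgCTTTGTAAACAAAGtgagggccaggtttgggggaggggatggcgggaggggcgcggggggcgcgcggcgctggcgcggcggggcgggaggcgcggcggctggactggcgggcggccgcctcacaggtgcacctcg
Foxa2: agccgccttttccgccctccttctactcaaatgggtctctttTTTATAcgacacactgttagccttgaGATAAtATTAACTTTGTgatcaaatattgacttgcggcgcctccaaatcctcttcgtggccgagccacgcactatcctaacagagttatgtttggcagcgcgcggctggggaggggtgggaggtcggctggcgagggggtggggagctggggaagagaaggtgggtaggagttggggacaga
Foxa3: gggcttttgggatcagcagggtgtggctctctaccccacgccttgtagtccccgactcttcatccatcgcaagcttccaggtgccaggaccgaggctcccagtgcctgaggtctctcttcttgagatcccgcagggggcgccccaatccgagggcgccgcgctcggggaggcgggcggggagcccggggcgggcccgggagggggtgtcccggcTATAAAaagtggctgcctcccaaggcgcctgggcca
Hnf4a: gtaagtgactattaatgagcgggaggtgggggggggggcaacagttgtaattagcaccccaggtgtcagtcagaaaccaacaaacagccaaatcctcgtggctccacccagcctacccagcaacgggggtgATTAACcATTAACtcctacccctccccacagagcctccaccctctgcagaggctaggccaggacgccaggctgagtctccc
In the Foxa1 stretch a TGTTTAC match (3.17% of 32851 windows hold one) lay between and overlapped 2 ACAAAG matches (16.5% of windows). The Foxa2 stretch held TATAAA (12.4% of windows), GATAA (22.6%), GTTAAT (6.43%) and ACAAAG, of which the last 2 share a base. The Foxa3 stretch held TATAAA alone, and the Hnf4a stretch held 2 GTTAAT matches. Of the windows not printed, those at the outer Foxa2 starts and at Hhex held no match. The window at the outer Hnf4a start held 1 GATAA match. CpG counts in the 250 bases were 21 for Foxa1, 18 for Foxa3, 32 for Hhex and 3 and 4 at the 2 Hnf4a starts, against a median of 6 over all windows. The 3 Foxa2 starts had 13 (the one shown), 20 and, at the outermost, 6, so that start lay at the median. At least 32 CpGs were found in 4.58% of windows and at least 4 in 62.2%. The Foxa1, Foxa2 and second Hnf4a stretches lie inside longer gene models of those genes in the GENCODE M21 annotation.

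Depth was estimated from the smallest step between low RPKM values, which are reads scaled to gene length and library size. It came to 11100000 to 18200000 reads for CJ7 mESC, 24300000 to 46300000 for CCE28 mESC, 28700000 to 39800000 for CJ7 EBs and 23600000 to 30800000 for CCE28 EBs, so low values are least precise in CJ7 mESC. The 12 pluripotency genes summed to between 1497 and 2209 RPKM in the mESC libraries and to between 31.4 and 168 in EBs other than Eed null. In Eed null EBs they summed to 778 and 811. Set against the labels, the targeted gene Eed read 15.8 and 16.3 RPKM in Eed null EBs and 49.6 and 55.3 in the wild type, and 22.3 and 22.1 against 105 and 119 in mESC, so transcripts of it were still counted in the null lines. Tceb3 read 6.17 to 8.02 RPKM in EloA-null mESC and 10.7 to 11.7 in CCE28 wild type. In EBs of wild type it read 9.89 and 11.4, with 7.94 and 9.09 for pair A, and 7.70 and 8.64 for pair B, which does not settle the contradiction in their labels.

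In wild-type EBs all 9 genes were detected in every library, and 7 of them stood above mESC in every line and genotype that had both stages. Sox17, Gata6, Foxa2, Gata4 and Foxa3 were the most abundant members in CJ7 EBs, with means of 14.2, 11.9, 9.41, 8.52 and 6.47 RPKM, followed by Foxa1 at 2.62, Hnf4a at 1.32, Hhex at 1.29 and Sox7 at 0.268. The 2 stages were normalised in separate tables, so stage levels are set side by side without a test. Genes above mESC were counted for the 9 members alone. The share of all genes that did the same was not computed, so the count cannot be called unusual. For Gata4, Gata6, Sox17, Sox7, Foxa1, Foxa2 and Foxa3 both EB libraries lay above every mESC library in 5 of 5 line and genotype pairs. For Gata4, a factor of primitive endoderm and heart, the EB mean was 13.6 times the mESC mean in CJ7 wild type and 36.9 times in CCE28 wild type. For Sox17 the ratio was 28.8 in CCE28 wild type. In CJ7 wild type Sox17 stood at 0.110 and 0.0358 RPKM in mESC, too few reads for a stable ratio, and at 13.5 and 15.0 in EBs. Hhex and Hnf4a behaved differently: EB libraries lay above mESC libraries in 2 of 5 pairs for Hhex and in 3 of 5 for Hnf4a, and the CCE28 wild-type ratios were 0.946 and 1.01. Hhex, with a median of 0.928 RPKM over the 14 mESC libraries (0.572 to 1.51), and Hnf4a, with 0.818 (0.305 to 2.64), were the members with the highest medians there.

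**Figure D1:**
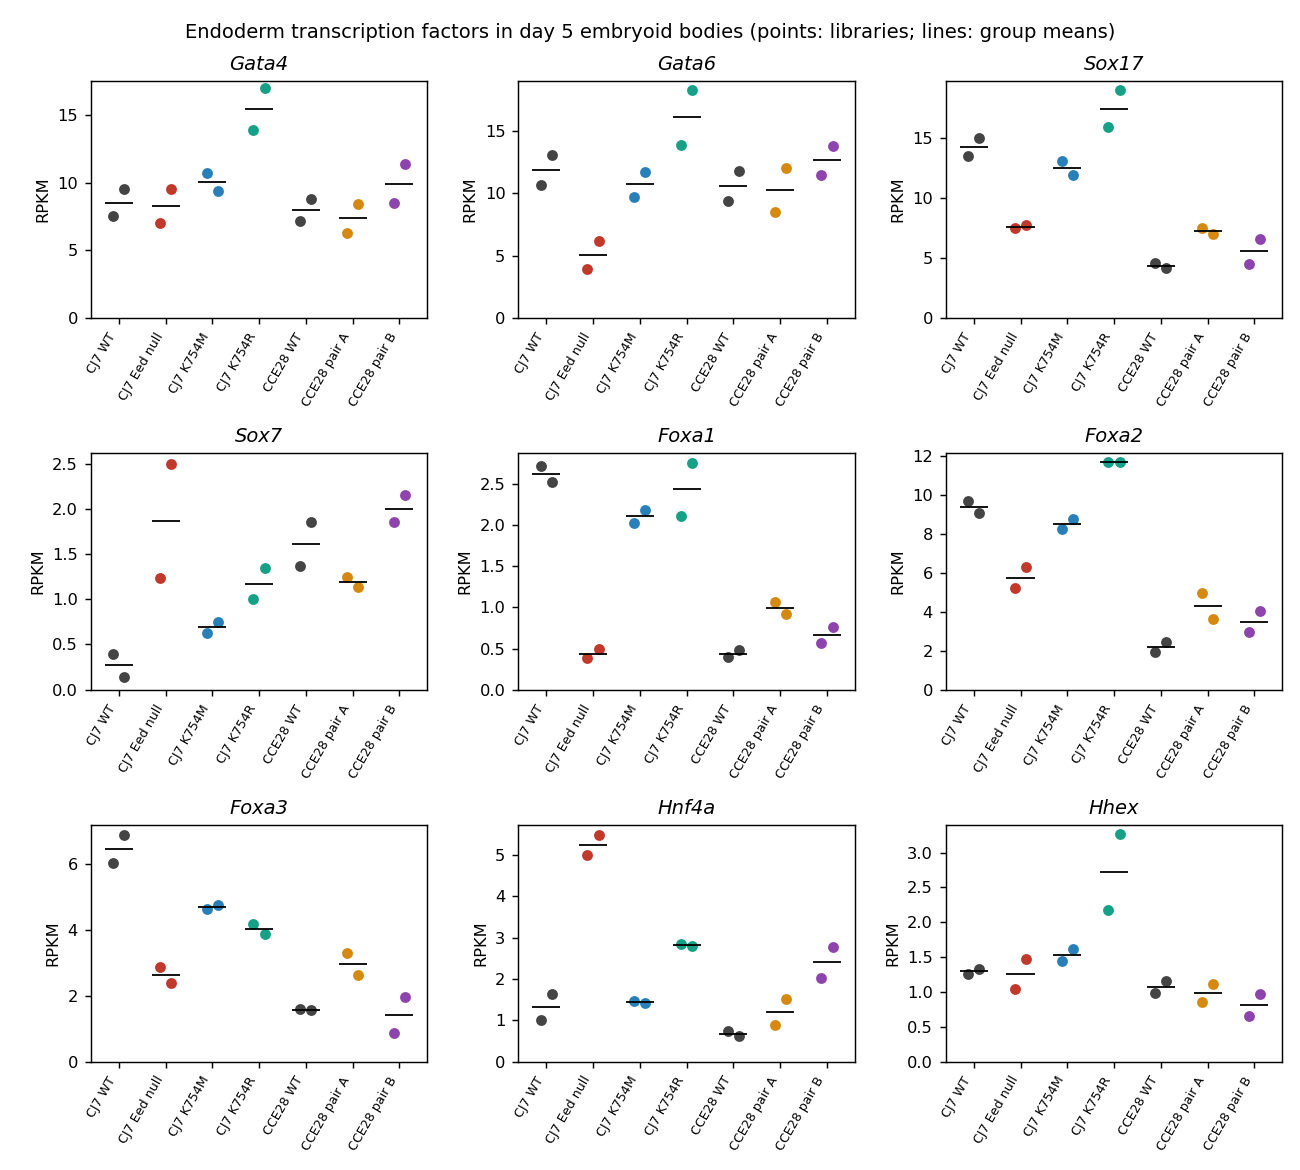
Expression of the 9 endoderm transcription factors in day 5 EBs, in RPKM on a linear axis from 0, with 1 point per library and a line at each group mean for the 7 EB groups. In the CJ7 line the Eed null libraries lie below the wild type for Gata6, Sox17, Foxa1, Foxa2 and Foxa3 and above it for Sox7 and Hnf4a, and the EloA K754R libraries are the highest for Gata4, Gata6, Sox17, Foxa2 and Hhex.

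Loss of Eed split the family in EBs. All 9 genes passed the filter on low values (at least 0.25 RPKM in 2 libraries of the fit). Of these 5 fell (Gata6, Sox17, Foxa1, Foxa2 and Foxa3), 2 rose (Sox7 and Hnf4a), and Gata4 and Hhex did not pass the test. Genes were tested with limma on log2(RPKM + 0.5) and called at a Benjamini-Hochberg adjusted p below 0.05 over all genes tested. In this comparison 30.4% of 19300 genes were called, 19.2% higher and 11.2% lower. The median log2 change of the 9 genes was -0.67, and that of all genes tested was 0.0481. Log2 changes on this scale understate the change of low genes. In whole EBs, fewer cells of a type and less RNA per cell cannot be told apart.

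Among the GATA factors, Gata6 and Gata4 separated. Gata6 read 10.7 and 13.1 RPKM in wild type and 3.92 and 6.17 in Eed null EBs. The groups did not overlap, and the first Eed null library was the lowest of all 14 EB libraries. Gata6 fell by 1.19 ± 0.23 on the log2 scale (SE, limma adjusted p = 0.00842, 2 libraries a group). Without the second wild-type library the change was -1.05 with an adjusted p of 0.0532, so the call rests on that library. Gata4 read 7.52 and 9.52 RPKM in wild type and 7.05 and 9.51 in Eed null EBs, ranges that overlapped almost completely. Its change was -0.04 ± 0.19 (adjusted p = 0.890). The Gata6 mean was thus 11.9 RPKM beside 8.52 for Gata4 in wild type, and 5.05 beside 8.28 in Eed null EBs.

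The 2 SoxF genes measured here changed in opposite directions. Sox17 read 13.5 and 15.0 RPKM in wild type and 7.48 and 7.72 in Eed null EBs, with a wide gap between the groups. It fell by 0.86 ± 0.13 (adjusted p = 0.00288). Sox7, a partner of Sox17 in primitive endoderm and also a gene of endothelium, read 0.394 and 0.142 RPKM in wild type and 1.23 and 2.50 in Eed null EBs. Both Eed null libraries lay above both wild-type ones, but the libraries of each pair differed by more than the lower of their values. Sox7 rose by 1.59 ± 0.30 (adjusted p = 0.00709). Sox7 made up 2.84% and 0.936% of the summed Sox7 and Sox17 RPKM in wild type and 14.1% and 24.5% in Eed null EBs.

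All 3 Foxa genes fell. Foxa1 had the largest log2 change of the 5 genes that fell: it read 2.72 and 2.52 RPKM in wild type and 0.385 and 0.494 in Eed null EBs. The groups were far apart, and Foxa1 fell by 1.73 ± 0.18 (adjusted p = 0.000566). Foxa2, the member needed for node and foregut, read 9.72 and 9.11 RPKM in wild type and 5.23 and 6.29 in Eed null EBs. It fell by 0.67 ± 0.13 (adjusted p = 0.00826), the smallest of the 3 changes. Foxa3, a liver and gut member, read 6.03 and 6.90 RPKM against 2.86 and 2.40, and fell by 1.15 ± 0.15 (adjusted p = 0.00141). Because Foxa1 changed more than Foxa2, its share of the summed Foxa RPKM was 14.7% and 13.6% in wild type and 4.54% and 5.38% in Eed null EBs, while that of Foxa2 was 52.6% and 49.1% against 61.7% and 68.5%. The antisense neighbour of Foxa2, 9030622O22Rik, read 3.95 and 3.90 RPKM in wild type and 1.66 in both Eed null libraries, and fell by 1.03 ± 0.19 (adjusted p = 0.00573).

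Hnf4a rose while the Foxa genes fell. It read 0.998 and 1.63 RPKM in wild type and 5.00 and 5.49 in Eed null EBs, where it was higher than in any other EB library of the series. Hnf4a rose by 1.68 ± 0.20 (adjusted p = 0.000940). Hhex read 1.26 and 1.33 RPKM in wild type and 1.04 and 1.47 in Eed null EBs, so the wild-type values lay within the Eed null range, and its change was -0.04 ± 0.22 (adjusted p = 0.908). The calls of Sox17, Sox7, Foxa1, Foxa2, Foxa3 and Hnf4a were kept when any 1 of the 4 libraries was left out.

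**Figure D2:**
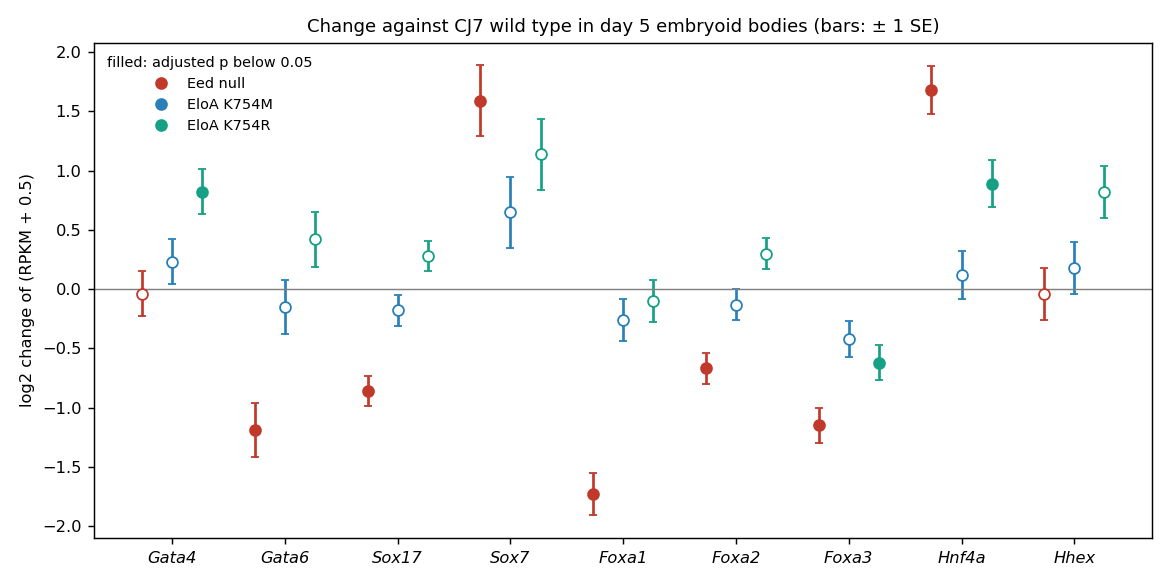
Log2 change of (RPKM + 0.5) against CJ7 wild type in day 5 EBs for each of the 9 genes in Eed null, EloA K754M and EloA K754R, with bars of 1 SE. Filled points passed an adjusted p of 0.05: 7 genes in Eed null, from -1.73 for Foxa1 to 1.68 for Hnf4a, none in K754M, and Gata4, Foxa3 and Hnf4a in K754R.

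Lists of genes known to act with or below these factors changed to different extents in the same EBs. These lists, like the 9 genes, were drawn up with earlier results of these data known. Of 25 visceral endoderm products, 23 were tested, 21 rose and 1 fell. Afp, the fetal serum protein of yolk sac and liver, read 87.3 RPKM in Eed null EBs and 1.46 in wild type (log2 change 5.50 ± 0.34), and Apob, a lipoprotein component, read 71.9 and 1.62 (5.09 ± 0.16). Apoa2 and Apoc2, further apolipoproteins, rose by 4.96 and 4.92. Of 8 tested liver genes and HNF4A targets, 5 rose and 1 fell, with Apoa1 up by 3.11, Ttr, a thyroid hormone carrier, up by 2.94 and Tdo2, a tryptophan oxygenase, down, by -2.25. Apoa1 and Ttr stand on both lists. Of 15 parietal endoderm products, 10 rose and 2 fell. The rising basement membrane genes Lama1, Col4a2 and Lamc1 changed by 3.05, 1.87 and 1.78, and the intermediate filament gene Vim changed by -1.73.

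Genes of definitive endoderm and of early endoderm specification did not move as a block. Of 13 tested genes of definitive endoderm and foregut, 3 rose and 5 fell. Cer1, a secreted antagonist of Nodal, fell by 3.11, the chemokine receptor gene Cxcr4 by 2.29 and Emb by 1.63, while Nepn rose by 2.63. Of 16 tested further endoderm regulators, 5 rose and 6 fell. Nr5a2, a nuclear receptor of pluripotent cells, visceral endoderm and liver, rose by 3.31, and Mixl1 and Lhx1, homeobox genes of mesendoderm, fell by 2.41 and 2.28. Of 11 genes of primitive endoderm specification, 6 rose and 1 fell, among them Lrp2 and Dab2, endocytic genes of visceral endoderm, with 3.13 and 2.16, Srgn with 3.88 and Fgf4, made by pluripotent cells, with 3.45.

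Markers of other cells moved with these changes in the same libraries. Of 11 tested cardiac mesoderm genes, a tissue in which Gata4 and Gata6 are also expressed, 8 fell and 1 rose, with Mesp1 at -4.64, Hand1 at -2.62, Tbx20 at -2.48 and Hand2 at -1.80. Their summed level was 98.2 to 127 RPKM in wild type and 17.9 to 23.1 in Eed null EBs. Of 12 pluripotency genes 11 rose, led by Zfp42 (4.79), Esrrb (4.53), Dppa3 (4.44) and Tfcp2l1 (3.54), and their sum was 113 to 137 RPKM against 778 to 811. Of 12 endothelial and blood genes, among which Sox7 is also expressed, 3 rose and 4 fell. Pecam1 and Gata2 rose by 1.73 and 2.45, and Kdr and Tal1 fell by 2.72 and 1.91. Of 8 node and notochord genes, where Foxa2 is also expressed, 5 fell and 1 rose, with Pkd1l1 at -2.20, Foxj1 at -1.62, Nog at -1.11 and Nodal at 1.76. Of 5 tested neuroectoderm genes 3 rose (Olig2, Zic1 and Pax6). Of 10 tested fibroblast genes 3 rose and 1 fell, with sums of 5.89 to 10.4 RPKM in wild type and 8.28 to 10.3 in Eed null EBs. The part of these cell types in the changes of the 9 genes was not tested.

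**Figure D3:**
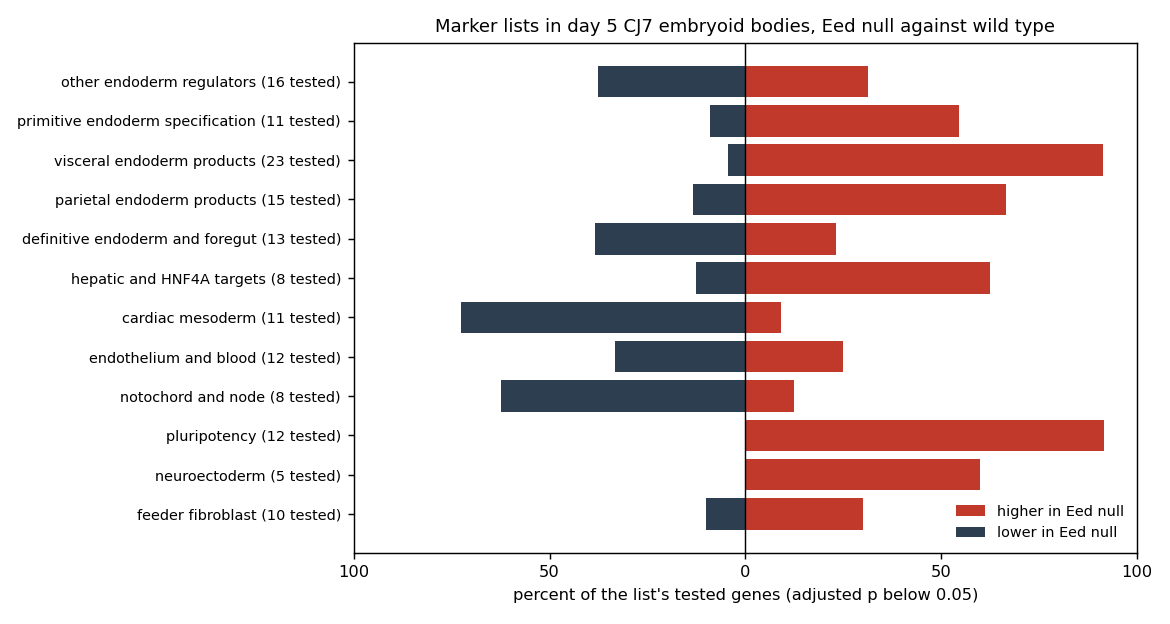
Percent of each list's tested genes that passed an adjusted p of 0.05 in day 5 CJ7 EBs, to the right where higher and to the left where lower in Eed null than in wild type. Visceral endoderm products (21 of 23) and pluripotency genes (11 of 12) lie almost wholly to the right and cardiac mesoderm genes (8 of 11) mostly to the left, while definitive endoderm genes lie on both sides.

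Against wild-type EBs, fewer of the 9 genes were called in the edited Elongin A lines than in Eed null. In EloA K754M EBs none of the 9 genes was called, in a comparison where limma called 0.565% of all genes and 2934 of 19300 had an unadjusted p below 0.05. Of the 9 genes Foxa3 alone had an unadjusted p below 0.05, with 4.65 and 4.75 RPKM in K754M EBs against 6.03 and 6.90, and a change of -0.42 ± 0.15 (limma adjusted p = 0.254). The largest change was that of Sox7, 0.65 ± 0.30 (adjusted p = 0.368), from 0.394 and 0.142 RPKM to 0.623 and 0.753. These 2 groups did not overlap for either gene, but neither difference passed the test.

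In EloA K754R EBs Gata4, Hnf4a and Foxa3 were called, where 9.68% of all genes were, 4.82% higher and 4.85% lower. Gata4 read 13.9 and 17.0 RPKM against 7.52 and 9.52 in wild type, and rose by 0.82 ± 0.19 (limma adjusted p = 0.0412). Hnf4a read 2.85 and 2.79 RPKM against 0.998 and 1.63, and rose by 0.89 ± 0.20 (adjusted p = 0.0366). Foxa3 read 4.18 and 3.88 RPKM against 6.03 and 6.90, and fell by 0.62 ± 0.15 (adjusted p = 0.0459). None of these ranges overlapped, yet each call was lost when any 1 of the 4 libraries was left out, with adjusted p of 0.0954 to 0.215 for Gata4, 0.0510 to 0.164 for Hnf4a and 0.0727 to 0.221 for Foxa3. The changes without 1 library were 0.66 to 0.98, 0.64 to 1.15 and -0.71 to -0.53. Sox7, at 1.00 and 1.34 RPKM, and Hhex, at 2.18 and 3.27, lay above both wild-type libraries but missed the threshold, with changes of 1.14 ± 0.30 (adjusted p = 0.0571) and 0.82 ± 0.22 (0.0610). In these EBs 6 of 12 pluripotency genes fell and none rose, with Pou5f1 at -3.34 and Nanog at -2.89, and 6 of 10 fibroblast genes rose, with Postn at 3.56 and Acta2 at 2.91. The fibroblast sum was 41.8 to 63.8 RPKM against 5.89 to 10.4 in wild type. Of 12 endothelial and blood genes 4 rose and none fell, led by the receptor genes Tek (2.23) and Tie1 (1.85), with sums of 67.3 to 81.2 RPKM against 44.4 to 46.7. Of 11 tested cardiac mesoderm genes 4 rose and 2 fell (Mesp1, -2.69, and Myl7, -2.10), with sums of 92.0 to 110 RPKM against 98.2 to 127. Of 8 node and notochord genes 3 fell and none rose, led by T (-2.54) and Foxj1 (-1.28). Endoderm lists were mixed. Among 23 tested visceral endoderm products 4 rose and 2 fell, and among 15 parietal endoderm products 3 rose and 2 fell. Definitive endoderm and foregut genes (13 tested) gave 1 higher and 4 lower, and primitive endoderm specification genes (11 tested) 3 and 2. Further endoderm regulators (16 tested) gave 1 lower, and liver genes and HNF4A targets (8 tested) 1 higher. The part of these cell types in the values of the 9 genes was not tested.

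With K754M and K754R EBs set directly against each other, none of the 9 genes was called (3.62% of all genes were). Of the 9, 6 had an unadjusted p below 0.05, as did 3694 of 19300 genes. Hnf4a came nearest to a call, with 1.47 and 1.42 RPKM in K754M and 2.85 and 2.79 in K754R and a change of -0.77 ± 0.20 (limma adjusted p = 0.0869). Against Eed null EBs, K754M differed in 6 of the 9 genes (27.2% of all genes called, 9.17% higher and 18.0% lower): Gata6, Sox17, Foxa1, Foxa2 and Foxa3 were higher and Hnf4a was lower. K754R differed in 8 (34.0% called, 13.6% higher and 20.4% lower): the same 5 genes with Gata4 and Hhex were higher, and Hnf4a was lower. These comparisons share the Eed null libraries with each other and with the comparison against wild type. Foxa1 was higher than in Eed null by 1.48 ± 0.18 in K754M (limma adjusted p = 0.00116) and by 1.64 ± 0.18 in K754R (0.000534), and Hnf4a gave -1.56 ± 0.20 (0.00135) and -0.79 ± 0.20. In K754M the calls of Foxa1 and Hnf4a were kept without any 1 library. Those of Gata6, Sox17, Foxa2 and Foxa3 were each lost without at least 1, with changes of 0.91, 0.61, 0.49 and 0.72 and adjusted p of 0.0976, 0.0705, 0.138 and 0.0724 where they were weakest, all of them without 1 of the K754M libraries. In K754R, Gata6, Sox17, Foxa1 and Foxa2 were kept, and Gata4, Foxa3, Hnf4a and Hhex were lost without at least 1 library, with 0.73, 0.49, -0.78 and 0.62 and adjusted p of 0.0828, 0.142, 0.0926 and 0.131 where they were weakest, all without 1 of the K754R libraries.

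Before differentiation Gata6 and Sox17 lay above wild type in the Eed null line, opposite to their direction in EBs. In CJ7 mESC 6 of the 9 genes passed the same filter, and none of the 6 was called, where limma called 8.59% of all genes and 5484 of 21012 had an unadjusted p below 0.05. Gata6 read 2.04 and 2.06 RPKM in Eed null mESC and 0.567 and 0.484 in wild type, about 91 and 89 reads against 20 and 21. The groups were well apart, and the change was 1.32 ± 0.35 (adjusted p = 0.0668). Sox17 read 0.680 and 0.504 RPKM against 0.110 and 0.0358, about 39 and 28 reads against 5 and 2. Its change was 0.93 ± 0.30 (limma adjusted p = 0.108). Sox17 passed the filter only through the Eed null libraries and a K754M library, so this test is no support for its direction. Gata4 read 1.39 and 0.964 RPKM against 0.704 and 0.546, with 0.57 ± 0.28 (0.248). For all 3 genes both Eed null libraries lay above both wild-type ones. The share of all genes that did the same was not computed, so this cannot be called unusual. Foxa3, Hnf4a and Hhex had changes of -0.18, -0.05 and -0.29 with adjusted p of 0.641 or more.

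The 3 genes left out by that filter were at or near the limit of detection. Sox7 had 11 and 13 reads (0.239 and 0.291 RPKM) in Eed null mESC and 0 in both wild-type libraries, where 3 reads would have been 0.0821 and 0.0668 RPKM. Foxa2 had 10 and 13 reads in Eed null mESC and 3 and 0 in wild type. Foxa1 had 2 and 11 reads against 0 and 5, so its groups overlapped. Over all mESC groups Sox7 was at 0 in 7 of 14 libraries, Foxa1 in 4 and Foxa2 in 3. Markers of feeder fibroblasts summed to 275 to 401 RPKM in Eed null mESC and to 205 to 291 in wild type, and 1 of 12 of them (Postn, 5.42 against 43.2 RPKM) fell. Their part in these values was not tested.

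**Figure D4:**
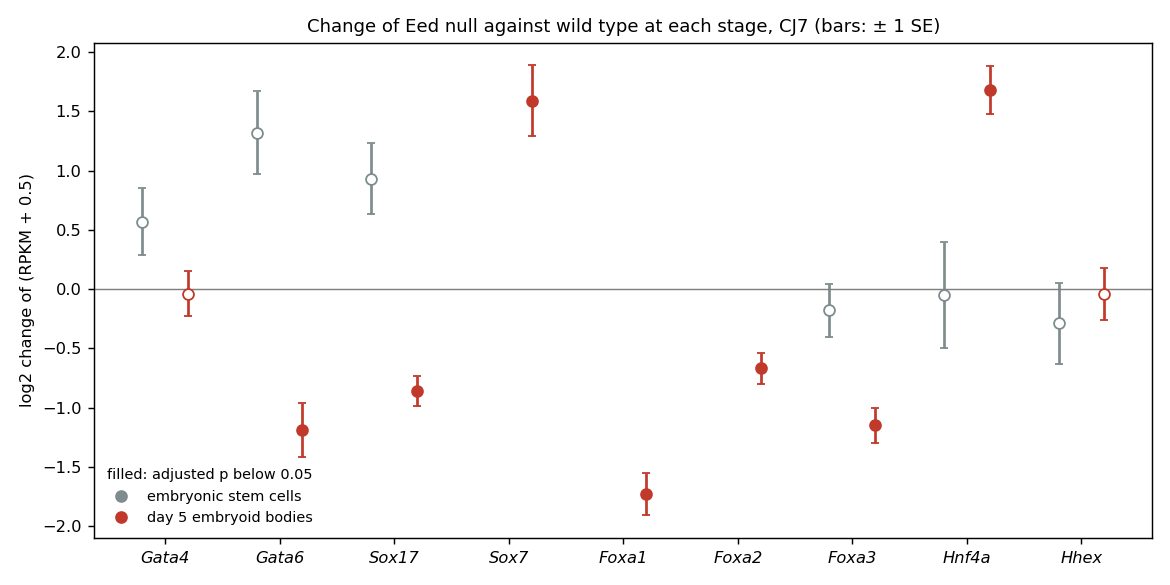
Log2 change of (RPKM + 0.5) of Eed null against CJ7 wild type in mESC (grey) and in day 5 EBs (red), with bars of 1 SE and filled points where the adjusted p was below 0.05. Gata6 and Sox17 lie above 0 in mESC (1.32 and 0.93, not called) and below 0 in EBs (-1.19 and -0.86, called), and Sox7, Foxa1 and Foxa2 have no mESC point because they did not pass the filter there.

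The difference between the stages was tested itself, as the Eed null change in EBs minus that in mESC, over 22818 genes of which 14.7% were called, 8.09% higher and 6.58% lower. Of the 6 members that passed the filter in both stages, 4 were called, Sox17 among them. The share called among all genes that passed in both stages was not computed. In mESC, Sox17 passed the filter only through the Eed null libraries and 1 K754M library. Its wild-type mESC libraries held 5 and 2 reads, so its mESC term is imprecise. The value of Sox17 is therefore no support for a difference between stages. Gata6, above wild type in mESC and below it in EBs, gave -2.50 ± 0.43 (limma adjusted p = 0.00279), and Sox17, with the same arrangement, gave -1.79 ± 0.33 (0.00442). The calls of these 2 genes were kept without any 1 of the 8 libraries. Foxa3 gave -0.98 ± 0.26 (adjusted p = 0.0283) and Hnf4a 1.73 ± 0.51 (0.0421). Foxa3 was lost without 7 of the 8 libraries (adjusted p up to 0.127) and Hnf4a without each of the 8 (0.0552 to 0.142). Gata4 and Hhex were not called, with -0.61 ± 0.33 (0.260) and 0.24 ± 0.41 (0.747).

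Foxa1, Foxa2 and Sox7 entered that fit only through the EB libraries. At their mESC levels the mESC term rests on few reads and depends on the value added before the logarithm. Their values are therefore no support for a difference between stages. Foxa1 gave -1.94 ± 0.31 (limma adjusted p = 0.00198) beside -1.73 in EBs alone, Foxa2 -1.11 ± 0.26 (0.0153) beside -0.67, and Sox7 0.98 ± 0.36 (0.0961) beside 1.59. With a pseudocount of 0.1 the values of Foxa1 and Foxa2 were -2.97 and -2.02. Foxa2 was lost without the first EB wild-type library (-1.07, adjusted p = 0.0568) or the second mESC Eed null library (-1.04, 0.0696).

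In mESC, lists of other genes put these values beside wider changes. Of 18 tested visceral endoderm products 8 rose and 1 fell in Eed null mESC, led by Apoa2 (3.54) and Lefty1 (3.07), a Nodal antagonist. Of 13 tested further endoderm regulators 4 rose and none fell, led by Cdx2 (3.04), a homeobox gene of trophectoderm and hindgut, and Cited1 (2.10). Of 11 tested definitive endoderm and foregut genes 3 rose and 1 fell, with Trh at 4.15 and Tmprss2 at 2.51. Of the 11 genes of primitive endoderm specification, 1 (Fgfr2, 1.82) was called. Of 11 tested cardiac mesoderm genes 4 rose and none fell, led by Nkx2-5 (1.72) and Tbx20 (1.65), with sums of 53.1 to 61.4 RPKM against 23.8 to 26.8. The part of these cell types in the values of Gata4, Gata6 and Sox17 was not tested.

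In mESC of the edited and EloA-null lines no member passed the test without a replicate block, and Hnf4a had the largest changes. In CJ7 mESC none of the 6 tested members was called in K754M, where limma called 0.00% of 21012 genes and 2103 had an unadjusted p below 0.05, or in K754R, where 0.162% were called and 3000 had such a p. Hnf4a read 2.64 and 1.07 RPKM in K754R, 1.59 and 0.543 in K754M and 0.464 and 0.305 in wild type. Both edited pairs lay above the wild type but spread widely, and the changes were 1.34 ± 0.45 in K754R (adjusted p = 0.253) and 0.74 ± 0.45 in K754M (0.689). In the CCE28 line Hnf4a read 1.18, 1.62 and 1.58 RPKM in EloA-null mESC and 0.383, 0.845 and 0.791 in wild type, so all 3 null libraries lay above all 3 wild-type ones. The change was 0.76 ± 0.20 with an adjusted p of 0.113, not called, in a comparison where limma called 3.35% of 18460 genes. There same-numbered libraries deviated together, which was taken to pair them, though the labels do not say so. With the replicate number as a block the same change had a limma adjusted p of 0.0225 and was called.

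Of the other members in EloA-null mESC, Foxa3 went the opposite way, with 0.340, 0.506 and 0.462 RPKM against 0.727, 0.657 and 0.753. The groups did not overlap, and the change was -0.38 ± 0.13 (limma adjusted p = 0.209). Gata6 and Hhex, the other 2 members tested, had changes of -0.25 ± 0.15 and -0.22 ± 0.19 (0.445 and 0.601). Foxa2, too low to be tested, had 10, 12 and 9 reads in the null libraries and 4, 3 and 2 in wild type, or 0.0789, 0.106 and 0.101 RPKM against 0.0236, 0.0188 and 0.0128. Those groups did not overlap either. Summed feeder fibroblast genes ranged from 192 to 578 RPKM in EloA-null mESC and from 97.1 to 408 in their wild type, with 0 of 12 called. They ranged from 252 to 897 in K754R and from 194 to 557 in K754M against 205 to 291 in CJ7 wild type. Their part in the Hnf4a values was not tested.

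**Figure D5:**
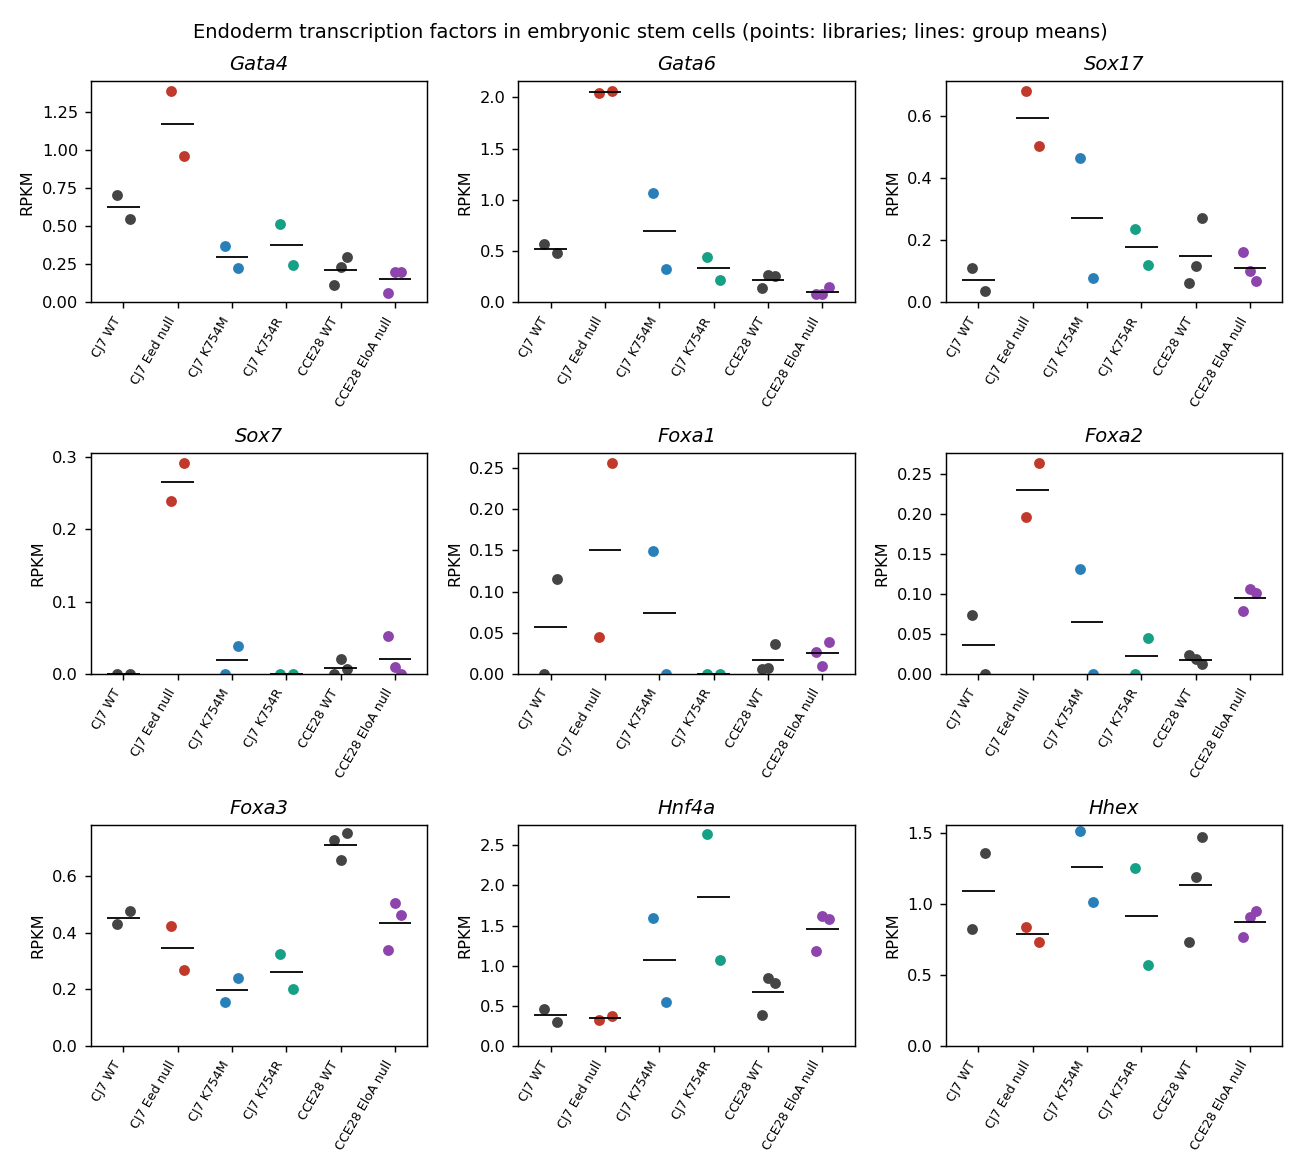
Expression of the 9 endoderm transcription factors in mESC, in RPKM on a linear axis from 0, with 1 point per library and a line at each group mean for the 6 mESC groups. Gata6, Sox17 and Sox7 are highest in the Eed null libraries, and Hnf4a lies above the matching wild type in the K754M, K754R and CCE28 EloA-null libraries.

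In CCE28 EBs none of the 9 genes was called in pair A against wild type, where limma called 0.00% of 17735 genes and 1166 had an unadjusted p below 0.05. None was called in pair B without a replicate block, where 0.135% of genes were called and 2746 had such a p. In pair A, Sox17 read 7.46 and 6.98 RPKM against 4.55 and 4.14, Foxa1 1.07 and 0.922 against 0.396 and 0.477, and Foxa2 4.97 and 3.63 against 1.94 and 2.45. All 3 genes lay above wild type without overlap, with changes of 0.67 ± 0.19, 0.68 ± 0.20 and 0.82 ± 0.23, each at a limma adjusted p of 0.708. Foxa3 (0.73 ± 0.30) and Hnf4a (0.51 ± 0.26) also lay above wild type without overlap, and Sox7 (-0.31 ± 0.19) lay below it. The share of all genes without overlap was not computed. In pair B the largest change was that of Hnf4a, which read 2.02 and 2.78 RPKM against 0.729 and 0.627 in wild type. Its change was 1.29 ± 0.26 (adjusted p = 0.110). With the replicate number as a block the same change was called (limma adjusted p = 0.0464). Same-numbered libraries of these groups deviated together (r = 0.33), but the labels do not say that numbers mark pairs. Against each other the pairs gave no called member either (0.440% of genes called, 3319 with an unadjusted p below 0.05), and Foxa3, at 0.877 and 1.95 RPKM in pair B and 3.29 and 2.64 in pair A, had the largest difference, -0.91 ± 0.30 (0.191). In pair B 2 of 21 tested visceral endoderm products rose (Amn by 2.72 and Lrp2 by 2.38), and fibroblast genes summed to 55.4 to 85.1 RPKM against 19.9 to 24.6 in wild type. Their part in the Hnf4a value was not tested.

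The wild-type lines themselves differed in Sox17, Sox7 and the Foxa genes. In EBs of CJ7 against CCE28 wild type 5 of the 9 genes were called (6.82% of all genes called, 4.17% higher and 2.64% lower in CJ7). Foxa2 read 9.72 and 9.11 RPKM in CJ7 and 1.94 and 2.45 in CCE28, a difference of 1.88 ± 0.18 (limma adjusted p = 0.000400). Foxa1, at 2.72 and 2.52 against 0.396 and 0.477, differed by 1.74 ± 0.17 (0.000432), and Foxa3, at 6.03 and 6.90 against 1.60 and 1.56, by 1.74 ± 0.24 (0.00226). Sox17, at 13.5 and 15.0 against 4.55 and 4.14, differed by 1.60 ± 0.16 (0.000476). These 4 were higher in both CJ7 libraries than in both CCE28 ones. Sox7 ran the other way, at 0.394 and 0.142 RPKM in CJ7 and 1.37 and 1.85 in CCE28. It differed by -1.47 ± 0.27 (adjusted p = 0.0103), a call lost without the second CJ7 library (-1.23, 0.0824) or the second CCE28 library (-1.31, 0.0685). Gata4, Gata6, Hnf4a and Hhex were not called, and their differences were 0.09 ± 0.21, 0.17 ± 0.24, 0.60 ± 0.23 and 0.20 ± 0.22. The summed Foxa RPKM was 18.5 in both CJ7 wild-type libraries and 3.94 and 4.49 in CCE28.

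Genes of the definitive and of the visceral endoderm list differed between the lines in the direction of the Foxa genes. Of 13 tested definitive endoderm genes, 9 were higher in CJ7 and none was lower, led by Cdh1 (2.64), the epithelial cadherin, and Trh (2.36). That list summed to 1521 to 1728 RPKM against 445 to 522. Visceral endoderm products were higher in 6 of 23 tested and lower in none, led by Spink3 (1.69) and Lefty1 (1.31). Of 17 tested further endoderm regulators 8 were higher and 1 lower, with Otx2, a homeobox gene of anterior endoderm and epiblast, at 2.13 and Cdx2 at -2.55. Cardiac mesoderm genes went more often the other way, 4 of 11 lower and 1 higher in CJ7, with Hand1 at -2.03. Endothelial and blood genes, beside the lower Sox7, were lower in 4 of 12 and higher in 1, led by Tal1 (-1.62) and Pecam1 (-1.45), with sums of 44.4 to 46.7 RPKM in CJ7 and 64.8 to 70.7 in CCE28. Node and notochord genes, beside the higher Foxa2, were higher in 3 of 8 and lower in none, led by Nodal (1.88) and Foxj1 (1.78), with sums of 81.6 to 90.5 against 46.6 to 70.7. Pluripotency genes summed to 113 to 137 RPKM in CJ7 and 53.5 to 72.9 in CCE28, and fibroblast genes to 5.89 to 10.4 and 19.9 to 24.6. The part of these cells in the line difference was not tested. In mESC, Gata4 alone of the 6 members tested was called between the lines (22.7% of all genes called, 12.5% higher in CJ7), at 0.704 and 0.546 RPKM in CJ7 and 0.117, 0.232 and 0.3 in CCE28. The difference of 0.66 ± 0.21 (limma adjusted p = 0.0421) was lost without any 1 of the 5 libraries (0.0577 to 0.211).

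Over the 7 EB groups the order of levels was, among the members, best separated for Sox17 and Foxa2. Overlaps were counted for the members alone, so these counts cannot be called unusual. Neighbouring groups overlapped in 1 of 6 places for Sox17, between pair B and CCE28 wild type, and in 1 of 6 for Foxa2, between pairs A and B. Both genes ran from K754R at the top through CJ7 wild type, K754M, Eed null, pair A and pair B to CCE28 wild type. Foxa3 was highest in CJ7 wild type and lowest in pair B, Hnf4a highest in Eed null and lowest in CCE28 wild type. For Gata4, 5 of 6 neighbours overlapped, and K754R was the group that stood apart. In mESC all 5 neighbouring pairs overlapped for Hnf4a and for Hhex.

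Correlations over the EB libraries describe how members moved together, and the libraries share line and genotype, so they are not independent. On the log2 scale Pearson's r over 14 libraries was 0.97 for Sox17 with Foxa2, 0.91 for Sox17 with Foxa1 and 0.86 for Foxa1 with Foxa2. Within the 8 CJ7 libraries these were 0.95, 0.93 and 0.90, and within the 6 CCE28 libraries 0.89, 0.94 and 0.96. Gata4 with Gata6 gave 0.64, with 0.73 in CJ7 and 0.97 in CCE28. Gata6 with Sox17 depended on the line, at 0.96 in CJ7 and -0.06 in CCE28. Foxa3 and Sox7 ran in opposite directions in both lines, at -0.95 and -0.62, while Foxa3 and Hnf4a gave -0.91 in CJ7 and -0.19 in CCE28.

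Among 13007 genes with a mean of at least 1 RPKM in EBs, those with the pattern most like a member's over the 14 libraries were named for each. For Gata6 they were Ikbkb (r = 0.97), Bmp2 (0.97), a secreted growth factor, and 6330578E17Rik (0.96). For Foxa2 they were Prdm1 (0.97), a transcriptional repressor of anterior endoderm and germ cells, Pppde1 (0.96) and Flrt3 (0.96), and for Sox17 Slc16a1, Spdef and Eda, each at 0.96. Foxa1 was most like Gm15675 (0.97), Eya2 (0.97) and Kitl (0.96), and Foxa3 Ap1s3 (0.92), Akr1c13 (0.92) and Sp5 (0.91). Sox7 was most like Efnb1 (0.96), Bend4 (0.96) and Zmym3 (0.91), and Hnf4a Irf9 (0.95), Ctsa (0.94), a lysosomal protease, and Myo6 (0.94), a motor of endocytosis. For Gata4 they were Tnrc18 (0.94) and Foxp4 (0.93), and for Hhex Cspp1 (0.95), Rgma (0.93) and Fzd5 (0.93). Over the 14 mESC libraries Hhex, the 1 member with a mean of at least 1 RPKM there, was most like Pecr (0.88), Scd2 (0.88) and Ccdc77 (0.87).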

How the data were processed

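Total RNA depleted of ribosomal RNA was sequenced, per the labels' protocols. Per the submitters' processing notes, CASAVA 1.7, STAR (no version given) and the mm9 genome were used, and the authors deposited 1 table of RPKM values per stage, with 37583 genes each. The members and gene lists were chosen with earlier results of these data known. Python 3.11.15, pandas 2.3.3 and matplotlib 3.10.9 were used to read, describe and plot the values.

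Values were transformed to log2(RPKM + 0.5). Genes with at least 0.25 RPKM in at least 2 libraries of a fit were tested with limma 3.58.1 (R 4.3.3; variances moderated with a trend on mean expression), and p-values were adjusted by Benjamini-Hochberg over all genes tested, in 16 comparisons. The 4 CJ7 groups of a stage shared 1 fit, as did the CCE28 groups. The procedure was tested on simulated data for genes with a mean of at least 1 RPKM, which does not cover members at lower levels. Because the stages lie in separate tables, no test crosses them except that of the Eed null change, which sets differences within each table against each other. Replicates correlated at 0.9258 to 0.9934 on the log2 scale, and no libraries held identical values. Overlap between groups was described for members alone, and the share of all genes without overlap was not computed.

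Depth was estimated by taking low values as whole multiples of 1 read. Of values under 0.3 RPKM, 39.5% to 45.5% per library lay within 0.02 reads of a whole multiple, too few for a count test. Reads were recovered for 8 members, not for Hnf4a. The floor of 3 reads covers counting error only.

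In CCE28 mESC, same-numbered EloA-null and wild-type libraries deviated together (r = 0.65, 0.33 and 0.37), which was taken to pair them. This pairing comes from the data, as the labels say only that numbers are shared.

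Named genes were all members, up to 4 called genes of each list with the largest change in Eed null EBs and at most 2 in other comparisons, the 3 genes most like each member, Eed and Tceb3, and antisense neighbours; 2 genes that this rule names are not reported here. Of 167 list entries 165 were found, and the other 2 were not analysed here. Alternatives were a pseudocount of 0.1 or 1, no filter, quantile normalisation, all libraries of a stage in 1 fit, a replicate block and leaving out each library.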

Additional observations from a re-analysis of the deposited data

Results flagged for a closer look

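The change that went with loss of Eed was tested for a difference between day 5 EBs and mESC of the CJ7 line. By limma 6 of the 9 genes were called, as were 14.7% of all 22818 genes tested. The difference, EB minus mESC on the log2 scale, was -2.50 for Gata6, -1.79 for Sox17, -1.94 for Foxa1, -1.11 for Foxa2, -0.98 for Foxa3 and 1.73 for Hnf4a. Gata6 and Sox17 lay above wild type in Eed null mESC and below it in Eed null EBs. For Sox17 the wild-type mESC libraries held 5 and 2 reads. It passed the filter in mESC only through the Eed null libraries and a K754M library, so its value is no support for a difference between stages. Foxa3 and Hnf4a differed little from wild type in mESC, with changes of -0.18 and -0.05. The calls of Foxa3 and Hnf4a were lost with a pseudocount of 0.1. Foxa1 and Foxa2 were at 0 to 13 reads in all 4 CJ7 mESC libraries compared and did not pass the filter on low values there. Their values are therefore no support for a difference between stages. Feeder fibroblast genes summed to 205 to 401 RPKM in these mESC libraries and to 5.89 to 10.4 RPKM in the EB libraries, and their part in the difference was not tested.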

How the results depend on the processing

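A change of sign was counted only where the member was called in the main fit or under the other setting. By that rule no change of a member reversed among 1294 values under other settings. Sign changes of members called in neither were not counted. Of 36 member calls in 16 comparisons, 19 were kept under every setting, 17 were lost under at least 1, and 8 pairs of gene and comparison that were tested but not called were called under another setting. In mESC Eed null against wild type, 0 members were called, but 1 was with no filter (Sox7, not tested otherwise and so not among the 8), 2 with all libraries of the stage in 1 fit (Gata6, adjusted p = 0.00517, and Sox17, 0.0196) and 1 with the replicate number as a block (Gata6, 0.0434). In CJ7 against CCE28 wild-type mESC the 1 member called (Gata4) became 0 with a pseudocount of 0.1, no filter, quantile normalisation or the replicate block, and 0 to 0 when libraries were left out in turn. In K754R against wild-type EBs the 3 members called became 0 with no filter and 0 to 0 with a library left out, and 4 with the replicate block. In pair B against CCE28 wild-type EBs 1 member (Hnf4a) was called in place of 0 with all libraries in 1 fit (0.0173) or with the replicate block (0.0464). With a library left out, members called were 3 to 6 in K754M against Eed null, 4 to 6 in K754R against Eed null, 3 to 6 for the stage difference, 6 to 7 in Eed null against wild-type EBs and 4 to 5 in CJ7 against CCE28 wild-type EBs. Fits that leave out a library leave some groups with 1 sample, whose spread is assumed to be that of the others.

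The replicate block called 1 member, Hnf4a, in EloA-null mESC, where the numbers were taken to pair the samples (r of 0.33 to 0.65). In the other sets no pairing was taken. There same-numbered libraries deviated together at r of 0.06 to 0.45 in CJ7 mESC, 0.04 to 0.36 in CJ7 EBs and 0.29 to 0.60 in CCE28 EBs. The CCE28 EB values were close to those of CCE28 mESC, but groups of 2 libraries give only 1 r per pair of groups. Counts over all genes moved more: those in K754R against wild-type EBs were 1868, 177 to 1249 with a library left out and 2950 with the block, and in mESC Eed null 1805, 179 to 417 and 2575. K754M against wild-type EBs gave 109, 0 to 17 and 230, K754M against K754R 698, 21 to 64 and 1099, pair B against wild type 24, 0 to 1 and 703, pair B against pair A 78, 0 to 1 and 1462, CJ7 against CCE28 wild type 1366, 567 to 768 and 2407 in EBs and 4934, 2867 to 4150 and 4040 in mESC, EloA-null mESC 619, 158 to 640 and 2288, and K754R mESC 34, 0 to 0 and 2. K754M mESC gave 0, with up to 955 under other settings, and K754R mESC up to 1747, mESC Eed null up to 5211. K754M and K754R against Eed null gave 5241 and 6570, with 2847 to 3971 and 4074 to 5546 when a library was left out, and the stage difference gave 3346, with 1729 to 2922. The 2 or 3 libraries a group, the depth of CJ7 mESC and the feeder RNA in mESC limit what can be told of members below 0.3 RPKM.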

Other observations

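The long noncoding gene 9030622O22Rik, which lies beside Foxa2, was listed at 0 in all 14 mESC libraries. In EBs its mean was 3.92 RPKM in CJ7 wild type, 1.66 in Eed null, 2.36 in K754M and 4.76 in K754R. K754M lay below K754R by 0.89 ± 0.19 on the log2 scale (limma adjusted p = 0.0486), a comparison in which Foxa2 itself, at 8.53 and 11.7 RPKM, missed the threshold (0.124). The summed level of the 9 transcription factors was 52.8 and 59.3 RPKM in CJ7 wild-type EBs, 34.2 and 42.1 in Eed null and 28.1 and 32.9 in CCE28 wild type.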
